A study of Mus musculus with 8 samples.

Results

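The vascular endothelial growth factors (VEGF), the angiopoietins and the neuropilins were examined in kidney RNA of diabetic mice treated with recombinant fibroblast growth factor 4 (rFGF4). The 9 genes were taken by name from the gene table: the ligands *Vegfa*, *Vegfb*, *Vegfc*, *Vegfd*, *Pgf*, *Angpt1* and *Angpt2*, and the co-receptors *Nrp1* and *Nrp2*. They are 9 of the 55401 genes in the deposited table, and 8 of them passed the filter on low values that left 15150 genes for testing. Polyadenylated RNA was sequenced in 4 kidney libraries of mice given rFGF4 (numbered 1, 2, 3 and 5) and 4 of the db/db model group (numbered 2, 3, 4 and 5). Mice of the db/db strain carry a mutated leptin receptor on both alleles and become obese and diabetic, and rFGF4 is an N-terminally truncated human FGF4 made in bacteria. The sample labels give the treated group only its treatment and the model group only its genotype, with no sex, age, dose or duration. The paper's methods describe male db/db mice injected intraperitoneally with the protein or with buffer as vehicle, whereas its text on the sequencing names streptozotocin-induced diabetes, so the diabetes model of the treated mice is not settled by these sources. No non-diabetic kidney was among the libraries, and a change caused by diabetes itself was not measured.

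VEGF-A is made by podocytes and tubule cells of the kidney and keeps the neighbouring capillary endothelium alive and fenestrated through its receptor Kdr, while Flt1 binds VEGF-A, VEGF-B and placental growth factor (*Pgf*) and acts in part as a decoy. VEGF-C and VEGF-D act mainly on the receptor Flt4 of lymphatic endothelium. Angiopoietin-1, from perivascular cells, activates the endothelial receptor Tek (also called Tie2) and steadies vessels, whereas angiopoietin-2, released by activated endothelium, often opposes it.

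The upstream DNA of 4 genes is shown, that of the abundant ligands *Vegfa* and *Vegfb*, of *Flt1*, the receptor both bind, and of *Tek*, the angiopoietin receptor. Each run holds the 250 bases before a gene's annotated start, 5′ to 3′ on the gene's own strand, from the RefSeq promoter table on build GRCm38.p6. Capitals mark GGGCGG, the box bound by Sp and KLF factors, and TATAAA, the TATA box, found on either strand with overlapping matches counted.
Vegfa: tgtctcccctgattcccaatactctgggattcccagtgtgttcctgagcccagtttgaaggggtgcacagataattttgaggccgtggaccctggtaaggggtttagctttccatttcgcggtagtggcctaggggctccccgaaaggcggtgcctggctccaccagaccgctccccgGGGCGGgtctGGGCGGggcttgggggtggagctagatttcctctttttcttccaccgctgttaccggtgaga
Vegfb: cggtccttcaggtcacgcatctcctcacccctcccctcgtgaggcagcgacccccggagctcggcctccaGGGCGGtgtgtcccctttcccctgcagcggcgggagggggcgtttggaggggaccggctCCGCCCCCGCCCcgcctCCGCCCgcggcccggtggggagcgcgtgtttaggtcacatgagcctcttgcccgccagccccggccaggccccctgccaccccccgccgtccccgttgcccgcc
Flt1: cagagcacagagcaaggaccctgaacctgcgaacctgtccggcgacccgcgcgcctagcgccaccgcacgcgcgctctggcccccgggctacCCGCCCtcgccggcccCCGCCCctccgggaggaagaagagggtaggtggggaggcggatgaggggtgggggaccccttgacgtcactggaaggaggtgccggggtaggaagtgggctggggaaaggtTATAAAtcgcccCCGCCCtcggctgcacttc
Tek: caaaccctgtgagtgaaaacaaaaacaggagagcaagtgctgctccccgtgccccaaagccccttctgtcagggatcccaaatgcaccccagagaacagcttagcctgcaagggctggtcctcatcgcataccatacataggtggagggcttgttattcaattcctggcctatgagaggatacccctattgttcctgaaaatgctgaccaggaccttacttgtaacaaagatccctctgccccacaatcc
The intervals are chr17:46032378-46032627 on the minus strand for *Vegfa*, chr19:6987652-6987901 on the minus strand for *Vegfb*, chr5:147726012-147726261 on the minus strand for *Flt1* and chr4:94739039-94739288 on the plus strand for *Tek*. The *Vegfb* sequence had a GC content of 76.4% and 4 GGGCGG boxes, and that of *Vegfa* had 59.2% and 2 boxes, the nearest beginning 62 bases before the start. *Flt1* had a GC content of 70.4%, 3 boxes and 1 TATAAA beginning 31 bases before the start, and *Tek* had 51.2% and no match to any motif searched. The lowest GC content among the matched genes was that of *Vegfd*, at 42.4%, with no GGGCGG and 1 TATAAA beginning 73 bases before the start. The median GC content of the 32851 promoters in the table was 52.4%, and 32.7% of them held GGGCGG, 12.4% TATAAA and 16.6% ACGTG, the core bound by hypoxia-inducible factors (HIF). ACGTG was absent from these 4 windows and occurred at a second annotated start of *Vegfa*. That window, chr17:46025164-46025413, lies inside the gene, and the bases after it were not found in any GENCODE transcript of *Vegfa*. Promoters of 7 of the 9 genes and 5 of the 6 receptors were matched, and *Angpt1*, *Angpt2* and *Ptprb* were not.

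Levels were FPKM (fragments per kilobase of transcript scaled to the mapped fragments of the library), which can be compared between genes because they are per length. The libraries were not alike in composition. The share of summed FPKM from mitochondrially encoded genes ranged from 19.0% to 36.0% in the rFGF4 group and from 24.4% to 38.4% in the model group, and the lowest shares were those of rFGF4 mouse 1 and model mouse 5. These 2 libraries also had the most macrophage transcripts, with summed FPKM of 8 markers at 2024 and 2887 against 110.7 to 1029 in the other 6. The table holds no read counts. From the steps between low values of genes with a single transcript, the depth was estimated at between 17600000 and 21900000 fragments per library. Kidney identity was clear, with *Umod*, the uromodulin of the thick ascending limb, at 1049 ± 159 (SD, n = 4) and 806 ± 168 FPKM in the rFGF4 and model groups.

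No difference between rFGF4-treated and model kidneys passed the test for any of the 8 tested genes. In limma on log2(FPKM + 1), 0 of 8 had an unadjusted p under 0.05, where 4.62% of all tested genes did (700 of 15150). No member passed the study's threshold, which also asks for a fold of 1.5 upward or 0.67 downward and was passed by 1.53% of tested genes (232). The adjusted p was under 0.05 for no gene at all (0%), its smallest value being 0.918. The groups overlapped for all 9 members, whereas 3.33% of tested genes (504) had groups that did not overlap. Of the 8 fold changes 5 were below 0, with a median of −0.07 on the log2 scale, against a median of 0.09 and 32.9% below 0 over all tested genes. With rFGF4 mouse 1 and model mouse 5 left out, a choice made after seeing the data, 0 of 8 still had an unadjusted p under 0.05. Libraries are named here by the number in their label. The study describes its replicates in general as biological, and these p-values measure the spread between the libraries. In bulk RNA, fewer cells of a type and less RNA per cell cannot be told apart.

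**Figure D1:**
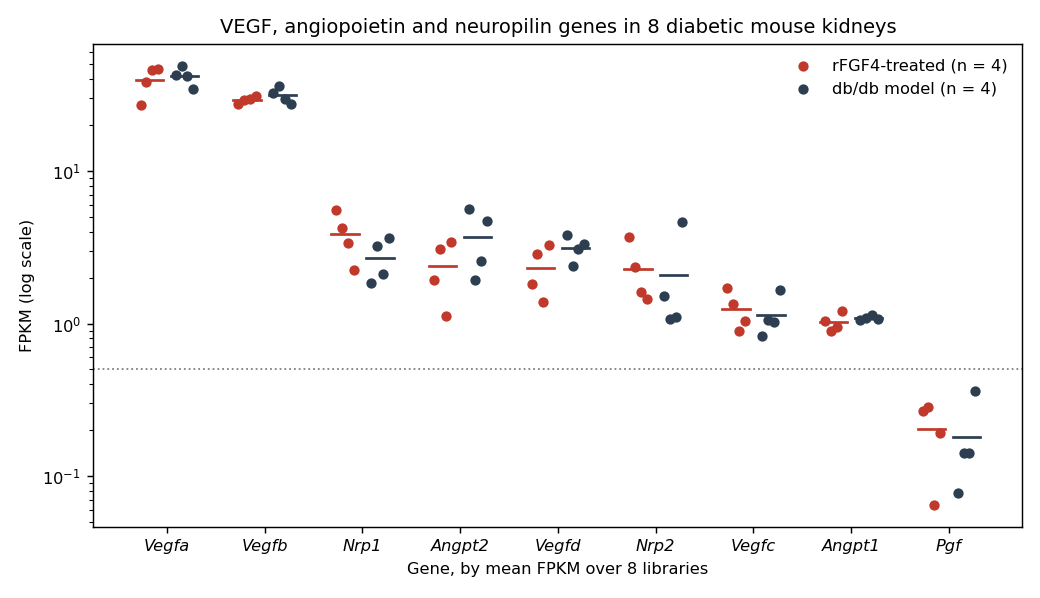
FPKM (log axis) of the 9 genes in each of the 8 libraries, ordered by mean level, with rFGF4-treated mice in red and model mice in dark blue. Horizontal bars are group means and the dotted line is the filter at 0.5 FPKM. *Vegfa* and *Vegfb* lie far above the other genes, *Pgf* lies under the filter in every library, and the groups overlap for every gene.

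*Vegfa*, the main survival factor of kidney capillaries, was the most abundant of the ligands. It lies at chr17:46016993-46032369 on the minus strand of GRCm38. Its FPKM was 27.1, 38.4, 46.2 and 47.0 in rFGF4 mice 1, 2, 3 and 5, and 42.5, 48.8, 42.0 and 34.4 in model mice 2, 3, 4 and 5. The lowest value of either group belonged to the library richest in macrophage transcripts in that group, and the other 6 values lay between 38.4 and 48.8. The group means were 39.7 ± 9.22 and 41.9 ± 5.92 (SD, n = 4). The log2 fold change was −0.10 with an SE of 0.20 and a 95% interval from −0.55 to 0.35 (limma p = 0.624, adjusted p = 0.953, exact permutation test, two-sided, p = 0.686). That interval corresponds to a fold of 0.684 to 1.27 on the log2(FPKM + 1) scale. The value had 93.0% of tested genes below it in mean FPKM and rested on an estimated 2291 to 4574 fragments per library.

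*Vegfb*, a ligand of Flt1 linked to fatty acid uptake by endothelium (chr19:6982473-6987651, minus strand), was the steadiest of the abundant genes. Its FPKM was 27.5, 29.4, 29.4 and 31.1 in the rFGF4 mice and 32.6, 35.9, 29.5 and 27.5 in the model mice. The 2 highest values came from model mice 2 and 3, and the other 6 libraries lay between 27.5 and 31.1. The log2 fold change was −0.09 (SE 0.11, 95% interval −0.35 to 0.17, limma p = 0.466, adjusted p = 0.936, exact permutation p = 0.343). This interval lies inside the study's fold limits in both directions.

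*Vegfc*, which drives the growth of lymphatic vessels (chr8:54077606-54187096, plus strand), was near 1 FPKM. The rFGF4 mice had 1.70, 1.34, 0.895 and 1.03 FPKM and the model mice 0.830, 1.05, 1.02 and 1.66. The highest value of each group came from rFGF4 mouse 1 and model mouse 5, the reverse of *Vegfa*. The log2 fold change was 0.07 (SE 0.17, 95% interval −0.31 to 0.45, limma p = 0.695, adjusted p = 0.960, exact permutation p = 0.657), with 39.6 to 82.6 estimated fragments per library.

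*Vegfd*, the other Flt4 ligand (chrX:164373378-164402650, plus strand), was at 1.80, 2.84, 1.39 and 3.26 FPKM in the rFGF4 mice and 3.80, 2.38, 3.09 and 3.33 in the model mice. Mice 1 and 3 of the rFGF4 group lay below every model mouse, and mice 2 and 5 lay among them. The means were 2.32 ± 0.870 and 3.15 ± 0.592, a log2 fold change of −0.35 (SE 0.21, 95% interval −0.83 to 0.14, limma p = 0.138, adjusted p = 0.918, exact permutation p = 0.2). Its p was the lowest among the 8 tested members, and without rFGF4 mouse 3 the log2 fold change was −0.20.

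*Pgf*, placental growth factor (chr12:85166635-85177790, minus strand), was too low to enter the fit. It was at 0.267, 0.286, 0.0648 and 0.192 FPKM in the rFGF4 mice and 0.0777, 0.142, 0.142 and 0.360 in the model mice, or an estimated 3.98 to 21.2 fragments per library. Both groups spanned most of the same range (exact permutation p = 0.83).

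*Angpt1*, the Tek agonist (chr15:42424723-42676977, minus strand), was the least variable of the genes near 1 FPKM. The rFGF4 mice had 1.03, 0.9, 0.952 and 1.20 FPKM and the model mice 1.06, 1.08, 1.14 and 1.07. Values of 3 rFGF4 mice lay just below the narrow model range and mouse 5 lay above it. The log2 fold change was −0.05 (SE 0.10, 95% interval −0.28 to 0.18, limma p = 0.633, adjusted p = 0.953, exact permutation p = 0.371). The gene *Gm17473* overlaps it on the opposite strand, and the sources used here do not say whether the libraries keep strand, so reads of both genes cannot be told apart.

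*Angpt2*, the Tek ligand made by activated endothelium (chr8:18690263-18741562, minus strand), varied more. Its FPKM was 1.94, 3.09, 1.12 and 3.41 in the rFGF4 mice and 5.64, 1.92, 2.55 and 4.71 in the model mice, so that the highest library was 5.02 times the lowest. The 2 highest values were from model mice 2 and 5 and the lowest from rFGF4 mouse 3, but model mouse 3 lay below the other 3 rFGF4 mice. The means were 2.39 ± 1.06 and 3.71 ± 1.76, a log2 fold change of −0.45 (SE 0.33, 95% interval −1.21 to 0.30, limma p = 0.207, adjusted p = 0.920, exact permutation p = 0.286). The interval includes changes in either direction and reaches beyond the study's fold limit on the lower side. Without rFGF4 mouse 3 the log2 fold change was −0.24, and without model mouse 2 it was −0.26. The ratio of *Angpt2* to *Angpt1* within a library was 1.87, 3.44, 1.18 and 2.84 in the rFGF4 mice and 5.31, 1.77, 2.24 and 4.4 in the model mice, or 2.33 ± 1.0 against 3.43 ± 1.70.

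*Nrp1*, the neuropilin that pairs with Kdr to bind VEGF-A and also binds class 3 semaphorins (chr8:128358604-128503363, plus strand), had the largest positive fold change of the members. The rFGF4 mice had 5.59, 4.21, 3.39 and 2.23 FPKM and the model mice 1.84, 3.20, 2.10 and 3.62. Mice 1 and 2 of the rFGF4 group lay above all model mice, and rFGF4 mouse 5 lay near the low end of the model group. The means were 3.85 ± 1.41 and 2.69 ± 0.856, a log2 fold change of 0.38 (SE 0.25, 95% interval −0.20 to 0.96, limma p = 0.174, adjusted p = 0.918, exact permutation p = 0.2). The microRNA gene *Mir1903* lies on the same strand within it.

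*Nrp2*, the neuropilin of lymphatic and venous endothelium that assists Flt4 (chr1:62703285-62818695, plus strand), had 3.72, 2.33, 1.61 and 1.45 FPKM in the rFGF4 mice and 1.52, 1.08, 1.11 and 4.6 in the model mice. Model mouse 5 was the highest of all 8 libraries and the next was rFGF4 mouse 1. The log2 fold change was 0.18 (SE 0.35, 95% interval −0.64 to 0.99, limma p = 0.632, adjusted p = 0.953, exact permutation p = 0.629). Without model mouse 5 and rFGF4 mouse 1 the remaining 3 model mice lay between 1.08 and 1.52 FPKM and the remaining 3 rFGF4 mice between 1.45 and 2.33.

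**Figure D2:**
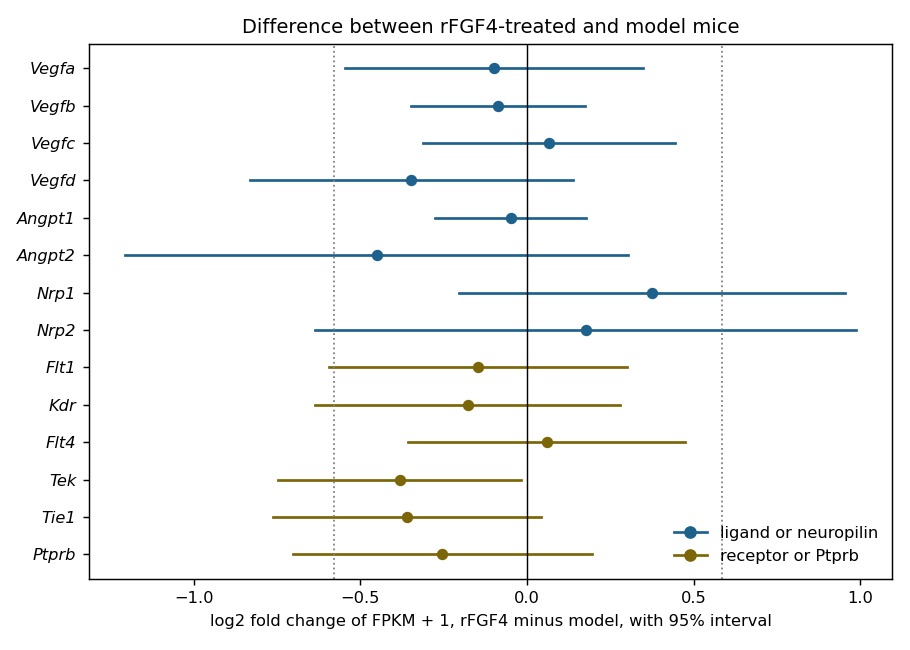
Log2 fold change of FPKM + 1 (rFGF4 minus model) with its 95% interval for the 8 tested members (blue) and for 6 receptor genes (brown). Dotted lines mark the study's fold limits of 1.5 and 0.67. Every interval but that of *Tek* includes 0, and that of *Angpt2* is among the widest.

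The order of the levels was set mainly by the abundance of *Vegfa* and *Vegfb*. Mean FPKM over the 8 libraries was 40.8 for *Vegfa*, 30.4 for *Vegfb*, 3.27 for *Nrp1*, 3.05 for *Angpt2*, 2.74 for *Vegfd*, 2.18 for *Nrp2*, 1.19 for *Vegfc*, 1.06 for *Angpt1* and 0.191 for *Pgf*. *Vegfa* exceeded *Vegfb* in 7 of 8 libraries, with a mean log2 ratio of 0.41 ± 0.21 (SD), the exception being rFGF4 mouse 1. *Vegfb* exceeded *Nrp1* in 8 of 8 libraries. The steps in this order among *Nrp1*, *Angpt2*, *Vegfd* and *Nrp2* lay within the spread of the within-library ratio, as did that between *Vegfc* and *Angpt1*. *Nrp2* lay above *Vegfc*, and *Angpt1* above *Pgf*, in 8 of 8 libraries. *Vegfa* and *Vegfb* together made 92.0% to 97.0% of the summed FPKM of the 5 VEGF-family ligands. *Vegfa* alone made 53.9% ± 5.58 of it in the rFGF4 group and 53.8% ± 2.04 in the model group.

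Among the receptors, *Tek* was the only gene with an unadjusted p under 0.05, and it was lower in the rFGF4 group. *Tek* encodes the angiopoietin receptor (chr4:94739289-94874976, plus strand), and its upstream sequence is shown above. Its FPKM was 3.82, 4.24, 4.10 and 5.77 in the rFGF4 mice and 6.60, 4.96, 5.69 and 7.31 in the model mice. Of the rFGF4 mice 3 lay below every model mouse and mouse 5 lay among them. The means were 4.48 ± 0.878 and 6.14 ± 1.03, a log2 fold change of −0.38 (SE 0.16, 95% interval −0.75 to −0.02, limma p = 0.0424, adjusted p = 0.918, exact permutation p = 0.0857, where the smallest possible value is 0.0286). Across all tested genes 1.06% (161) were lower at an unadjusted p under 0.05. The fold of 0.767 did not pass the study's limit. Without rFGF4 mouse 1 and model mouse 5 the log2 fold change was −0.25 and the unadjusted p was no longer under 0.05. With single libraries left out in turn it stayed under 0.05 without model mouse 3 or rFGF4 mouse 5, and not without any of the other 6. It was also above 0.05 when FPKM was rescaled to genes not mitochondrially encoded (−0.30) and with a block on mouse number (−0.35).

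*Tie1*, an orphan receptor that associates with Tek (chr4:118471191-118490061, minus strand), was at 4.12, 4.01, 3.92 and 6.46 FPKM in the rFGF4 mice and 6.63, 5.56, 5.17 and 7.29 in the model mice. The rFGF4 mice 1, 2 and 3 lay close together below the model mice, and mouse 5 stood apart from them. The log2 fold change was −0.36 (SE 0.18, 95% interval −0.76 to 0.04, limma p = 0.0730, adjusted p = 0.918, exact permutation p = 0.0857). The ratio of *Tek* to *Tie1* within a library was 0.981 ± 0.0829 in the rFGF4 group and 0.998 ± 0.0853 in the model group.

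The VEGF receptors and the Tek phosphatase gave smaller differences. *Flt1*, the receptor shared by VEGF-A, VEGF-B and *Pgf*, had 1.79, 2.82, 2.43 and 3.5 FPKM in the rFGF4 mice and 4.13, 2.42, 2.45 and 3.08 in the model mice (log2 fold change −0.15, SE 0.20, limma p = 0.476, adjusted p = 0.939, exact permutation p = 0.457). *Kdr*, the main signaling receptor of VEGF-A, had 2.82, 2.87, 3.07 and 4.31 against 5.26, 2.51, 3.76 and 4.01 FPKM (−0.18, SE 0.20, limma p = 0.397, adjusted p = 0.926, exact permutation p = 0.371). Both were highest in model mouse 2, without which the log2 fold changes were −0.02 for *Flt1* and −0.05 for *Kdr*. *Flt4*, the receptor of VEGF-C and VEGF-D, had a log2 fold change of 0.06 (SE 0.18, limma p = 0.752, adjusted p = 0.971, exact permutation p = 0.743), and *Ptprb*, the endothelial phosphatase that removes phosphate from Tek, had −0.25 (SE 0.20, limma p = 0.229, adjusted p = 0.920, exact permutation p = 0.229). Of the 6 genes 5 had a fold change below 0, with a median of −0.22, against 32.9% and 0.09 over all tested genes.

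The libraries in which these genes were high differed by gene. Described by Pearson's r of log2(FPKM + 1) over the same 8 libraries, which share their depth and composition, *Angpt2* was most like *Pecam1* (r = 0.994), an adhesion molecule of endothelium, then *Ddx59* (0.956) and *Robo4* (0.949), an endothelial guidance receptor. *Angpt2* and *Vegfd* had r = 0.921, and *Tek* and *Tie1* had r = 0.946. *Pecam1* was at 5.84, 7.23, 5.14 and 7.60 FPKM in the rFGF4 mice and 9.21, 6.01, 6.63 and 8.99 in the model mice, with the lowest value in rFGF4 mouse 3 and the highest in model mouse 2, as for *Angpt2*. The genes most like *Vegfd* were *Gm16006* (0.970), *Gm10171* (0.945) and *Ak4* (0.944), and those most like *Vegfa* were *Cavin2* (0.974), *Myl6b* (0.970) and *Proc* (0.968). For *Vegfb* they were *Uqcrq* (0.981), a subunit of mitochondrial complex III, *Top3b* (0.964) and *Ppp2r2b* (0.958). For *Angpt1* they were *Gm15540* (0.933), *Map3k7cl* (0.923) and *Gm15510* (0.906).

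**Figure D3:**
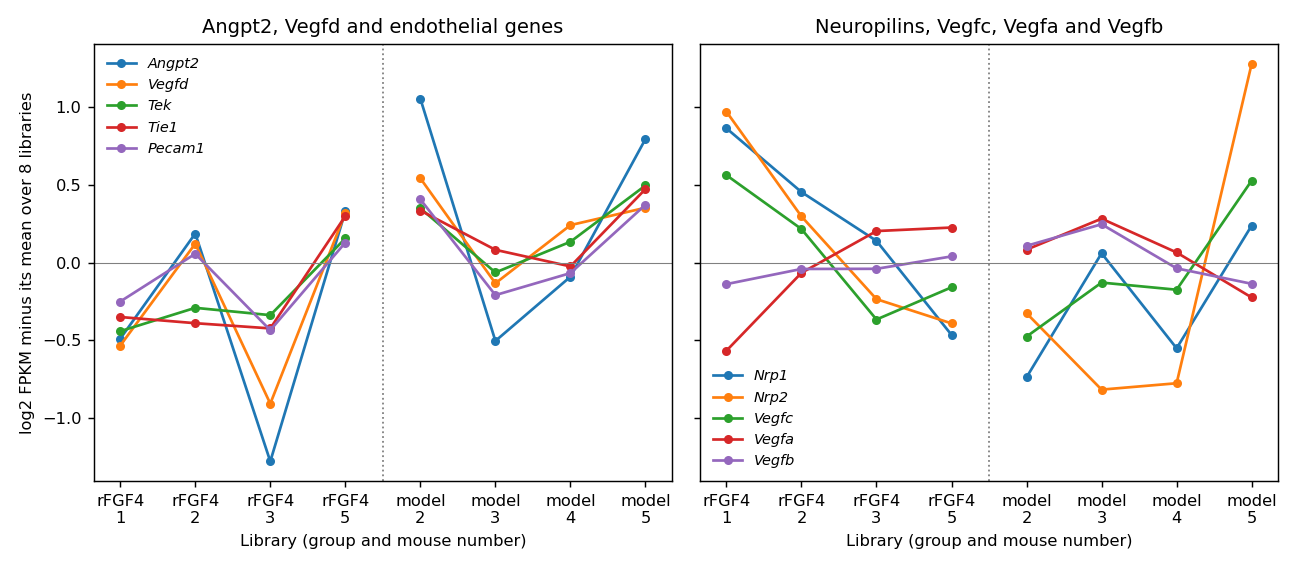
Log2 FPKM of each gene minus its mean over the 8 libraries, for *Angpt2*, *Vegfd*, *Tek*, *Tie1* and the endothelial gene *Pecam1* (left) and for *Nrp1*, *Nrp2*, *Vegfc*, *Vegfa* and *Vegfb* (right). Lines only join the points of 1 gene within a group, and the mice have no order. In the left panel each gene is lowest in rFGF4 mouse 1 or 3 and highest in model mouse 2 or 5, and in the right panel *Nrp2* and *Vegfc* are highest in rFGF4 mouse 1 and model mouse 5, where *Vegfa* is lowest.

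Of the 13 endothelial markers, all tested, none had an unadjusted p under 0.05. Their fold changes were below 0 for 11, with a median of −0.25, against 32.9% below 0 and a median of 0.09 over all tested genes. Without rFGF4 mouse 5, 5 of the 13 were lower at an unadjusted p under 0.05, as were 2.16% of all tested genes in that fit. Without model mouse 5, 9 were below 0 (median −0.17), and without rFGF4 mouse 1 and model mouse 5, 10 were (median −0.15). Of all tested genes 27.7% and 35.3% were below 0 in those fits, and neither had an endothelial marker at an unadjusted p under 0.05. The gene with the smallest p, *Sox18*, a transcription factor of endothelium, was at 3.34 ± 1.44 FPKM in the rFGF4 group and 5.30 ± 2.07 in the model group (log2 fold change −0.53, limma p = 0.0987, adjusted p = 0.918, exact permutation p = 0.171). Summed over the list, FPKM was 116.8, 112.7, 88.05 and 136 in the rFGF4 mice and 145.1, 114, 107.4 and 164.5 in the model mice, so the groups overlapped. The part of endothelial content in the values of *Tek*, *Tie1* and *Angpt2* was not tested. Of the 8 tip cell genes, which include *Angpt2* itself and mark sprouting endothelium, 5 were lower and none had an unadjusted p under 0.05. *Adm*, which encodes the vessel peptide adrenomedullin, had the smallest p of them (10.2 ± 5.08 against 5.78 ± 2.43 FPKM, log2 fold change 0.65, limma p = 0.126, adjusted p = 0.918, exact permutation p = 0.229).

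*Nrp1*, *Nrp2* and *Vegfc* were high in the pair of libraries richest in macrophage markers. All 8 of those markers were tested and had a fold change above 0 (median 0.43), where 32.9% of all tested genes were below 0 (median 0.09). None had an unadjusted p under 0.05, where 4.62% of all tested genes did, and *C1qb* had the smallest (74.3 ± 76.7 against 60.7 ± 82.2 FPKM, limma p = 0.551, adjusted p = 0.949, exact permutation p = 0.629). The direction depended on the scale, since mean FPKM was lower in the rFGF4 group for *Lyz2* (280 against 382), for *Cd74* (393 against 452) and for the sum of the list (878 against 1011). Their summed FPKM was 2024, 1029, 297.1 and 160.7 in the rFGF4 mice and 111.4, 933.6, 110.7 and 2887 in the model mice. All 3 genes were at the highest level of their group in rFGF4 mouse 1 and in model mouse 5. Model mouse 3 had the next highest marker sum of its group and the next highest *Nrp1*, at 3.20 FPKM, while its *Nrp2*, at 1.08 FPKM, was the lowest of all 8 libraries and its *Vegfc*, at 1.05, was close to that of model mouse 4. Without rFGF4 mouse 1, 6 of the 8 markers had a fold change below 0 (median −0.07), as did 47.8% of all tested genes in that fit. Without model mouse 5 all 8 were above 0 with a median of 1.36, where 27.7% of all tested genes were below 0. The 3 tested genes most like *Nrp1* were *Tnfrsf12a* (r = 0.996), the receptor of the cytokine TWEAK, *Nes* (0.991) and *Usp31* (0.990). Those most like *Nrp2* were *Cd83* (0.994), a marker of activated immune cells, *Cped1* (0.992) and *Lhfp* (0.992), and those most like *Vegfc* were *Tbkbp1* (0.991), *Nfkbid* (0.984) and *BC030343* (0.984). The genes with r of at least 0.9 numbered 1106 for *Nrp1*, 726 for *Nrp2* and 1359 for *Vegfc*, against 14 for *Angpt2* and 3 for *Angpt1*. The part of macrophage content in the neuropilin values was not tested.

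**Figure D4:**
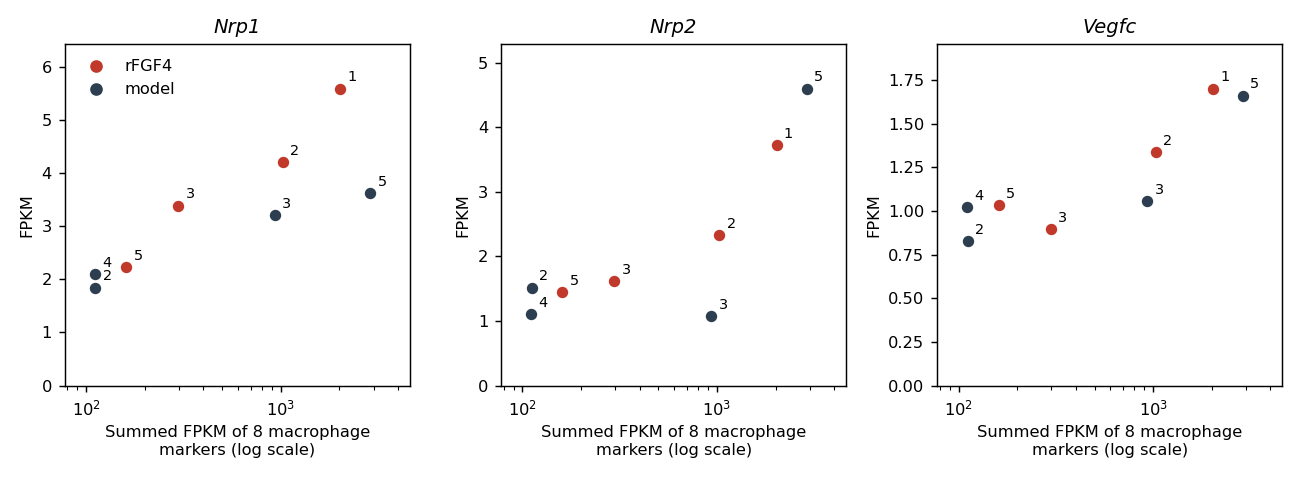
FPKM of *Nrp1*, *Nrp2* and *Vegfc* in each library against the summed FPKM of 8 macrophage markers (log axis), with rFGF4 mice in red, model mice in dark blue and mouse numbers beside the points. The libraries of rFGF4 mouse 1 and model mouse 5 have the most marker RNA, at 2024 and 2887, and the highest *Nrp2* and *Vegfc*.

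The lymph node markers, a list of 9 genes of which 6 were tested, gave a summed FPKM of 22460 in model mouse 5 and 26.11 to 2662 in the other 7 libraries. Most of each sum was the immunoglobulin gene *Igkc* alone, at 22330 FPKM in model mouse 5 and 2640 in rFGF4 mouse 1. None of the 6 tested genes had an unadjusted p under 0.05, where 4.62% of all tested genes did. *Ccl19*, a chemokine of lymphoid tissue, had the smallest (0.653 ± 0.404 against 4.98 ± 7.75 FPKM, limma p = 0.238, adjusted p = 0.920, exact permutation p = 0.4). Of the 6, 5 were below 0 (median −0.27), where 32.9% of all tested genes were. Without model mouse 5, 5 were above 0 (median 0.45), where 27.7% of all tested genes were below 0. Of the lymphatic endothelial list, which bears on *Vegfc* and *Vegfd* and includes *Flt4* itself, 4 of 7 genes were tested and none had an unadjusted p under 0.05. *Prox1*, the transcription factor of lymphatic identity, was at 0.781 ± 0.285 and 1.14 ± 0.727 FPKM in the rFGF4 and model groups (limma p = 0.352, adjusted p = 0.925, exact permutation p = 0.486), and *Lyve1*, a receptor of lymphatic vessels and some macrophages, was under 0.5 FPKM in every library. The lymph node and lymphatic lists share 1 gene.

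Genes that act with the ligands were counted from pathway lists. The VEGF-C processing list holds the proteases and the cofactor that cut VEGF-C into its active form. Of its 5 tested genes, 1 was higher at an unadjusted p under 0.05 and none lower, against 3.56% and 1.06% of all tested genes. This was *Furin*, a proprotein convertase with many substrates, at 19.6, 19.0, 19.6 and 16.0 FPKM in the rFGF4 mice and 13.5, 14.7, 14.9 and 13.9 in the model mice. All rFGF4 mice lay above all model mice, where 3.33% of tested genes had groups that did not overlap in either direction. Its log2 fold change was 0.35 (SE 0.11, limma p = 0.010, adjusted p = 0.918, exact permutation p = 0.0286), and the fold stayed under the study's limit. Of 12 neuropilin ligands and plexins, 7 were tested and none had an unadjusted p under 0.05. *Sema3f*, a semaphorin that binds *Nrp2*, had the smallest (4.90 ± 1.26 against 3.32 ± 1.06 FPKM, limma p = 0.0709, adjusted p = 0.918, exact permutation p = 0.143).

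Downstream of the receptors, 19 of 21 signaling genes were tested and all 19 had a fold change above 0, with a median of 0.28, where 32.9% of all tested genes were below 0 with a median of 0.09. Of these, 2 were higher at an unadjusted p under 0.05, as were 3.56% of all tested genes (539). Without rFGF4 mouse 5 the number was 5 of 19, against 7.28% of all tested genes. The summed FPKM of the list was 495.9 in rFGF4 mouse 1 and 209.7 to 324.1 in the other treated mice, against 333 in model mouse 5 and 190.6 to 236.8 in the other model mice. Without rFGF4 mouse 1, 15 of 19 were above 0 with a median of 0.14, while 47.8% of all tested genes were then below 0 with a median of 0.01. Without both mouse 1 and model mouse 5 the number was 19 of 19 with a median of 0.25, and 35.3% of all tested genes were below 0. *Sphk1*, a sphingosine kinase, was at 2.94, 2.38, 0.994 and 1.99 FPKM in the rFGF4 mice and 1.02, 0.825, 0.481 and 1.16 in the model mice. Its groups overlapped at rFGF4 mouse 3, the log2 fold change was 0.69 (SE 0.23, limma p = 0.0148, adjusted p = 0.918, exact permutation p = 0.0857), and it was the 1 gene of this list past the study's threshold. *Pxn*, the focal adhesion protein paxillin, was at 10.9 ± 2.89 against 7.08 ± 0.561 FPKM (log2 fold change 0.52, limma p = 0.0218, adjusted p = 0.918, exact permutation p = 0.0571). These genes are used by many receptors and cell types.

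Of 13 genes that respond to HIF, all were tested, with 8 fold changes above 0 and 5 below and a median of 0.12. At an unadjusted p under 0.05, 1 was higher and 1 lower, against 3.56% and 1.06% of all tested genes. Without rFGF4 mouse 5, 3 were higher and 1 lower, against 7.28% and 2.16% of all tested genes. *Egln3*, an oxygen-sensing prolyl hydroxylase, was at 13.5, 19.8, 18.6 and 13.4 FPKM in the rFGF4 mice and 11.5, 8.62, 11.7 and 10.0 in the model mice, with groups that did not overlap, as for 3.33% of tested genes (log2 fold change 0.58, SE 0.17, limma p = 0.00771, adjusted p = 0.918, exact permutation p = 0.0286). *Ankrd37* was at 0.676 ± 0.201 and 1.38 ± 0.536 FPKM (log2 fold change −0.49, limma p = 0.0284, adjusted p = 0.918, exact permutation p = 0.0571).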

How the data were processed

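Kidney RNA was sequenced as 8 paired-end poly(A) libraries, and groups came from the sample labels. The authors mapped the reads, assembled transcripts with StringTie and deposited FPKM per gene. The submitters' processing notes name HISAT2 2.0, Bowtie 0.12.2, StringTie 1.3.0 and build mm8, with no role or order, yet 99.5% of the 55401 gene identifiers are in GENCODE M21 on GRCm38, from which positions were taken. The deposited table also holds the authors' fold changes, p-values and regulation calls, which were not used. The value 0.0001 stands in for 0 (254707 of 443208 values).

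Genes with FPKM of at least 0.5 in at least 4 libraries were tested as log2(FPKM + 1) by limma 3.58.1 (R 4.3.3), letting the prior variance follow mean level, and p-values were adjusted by Benjamini-Hochberg over all tested genes. A fold change on this scale understates the change of low genes. Named genes outside the correlation lists were compared a second way, by exact permutation of the 8 libraries (two-sided, 70 regroupings, smallest p 0.0286). The study's methods name a test that needs counts. Only 27.1% to 30.2% of low values lay within 0.05 of a multiple of 1 fragment, so reads were not recovered and no count test was run. Depths and fragment numbers are therefore rough estimates and no counting interval is given. The limma script was tested on simulated data.

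The text names the 9 members, 6 receptors, in each other list the genes with an unadjusted p under 0.05 or else the gene with the smallest p, and the 3 tested genes most correlated with each tested member. *Lyve1*, *Lyz2*, *Cd74*, *Igkc*, *Cyp11b1*, *Cyp11b2* and *Th* were named after their values were seen. Members and lists were chosen with earlier results of these data known, so the lists are descriptions. Alternatives were another pseudocount, no filter, other scalings, no variance trend, a block on mouse number and leaving out libraries. Promoter sequences came from RefSeq on GRCm38.p6.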

Additional observations from a re-analysis of the deposited data

Results flagged for a closer look

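In groups of 4, a library stands apart where its gap to the nearest other, divided by the group's range, exceeds Dixon's 95% critical value. Genes were examined as log2(FPKM + 1), and within-library ratios and library measures without a log. Of 50 groups examined 3 exceeded it, and chance alone gives about 1 in 20. *Tie1* in rFGF4 mouse 5 had a ratio of 0.903, being at 6.46 FPKM where the other 3 treated mice lay between 3.92 and 4.12. *Ptprb* in the same mouse had 0.831, at 3.45 FPKM against 1.80 to 2.03. The summed FPKM of model mouse 5 had 0.840, at 481321 against 541179 to 552604 in the other model mice. No part of these values in the comparisons was tested beyond the fits without the library.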

How the results depend on the processing

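No member passed the study's threshold under any of the 15 alternatives. At an unadjusted p under 0.05 (limma) the number of members was 0 by the reported fit, 1 with the replicate block and 0 to 1 when a library was left out. The block made *Angpt2* pass (−0.51, with a range of −0.65 to −0.24 over single libraries left out, and −0.48 to −0.20 for *Vegfd*), and leaving out rFGF4 mouse 5 made *Nrp1* pass (0.56, and 0.213 without rFGF4 mouse 1, its range over single libraries). The lowest adjusted p over members and alternatives was 0.529. All genes past the study's threshold numbered 232, 188 to 580 when a library was left out (434 without model mouse 5, 580 without rFGF4 mouse 5) and 54 with a fold change of 2. The mouse numbers 2, 3 and 5 occur in both groups, so the block leaves rFGF4 mouse 1 and model mouse 4 out of the group difference. Deviations of same-numbered mice from their group means correlated at −0.229, −0.155 and −0.393. These correlations come from libraries of unlike composition and cannot decide whether the mice were paired.

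Directions reversed for small changes. With the replicate block the log2 fold change was 0.0716 for *Vegfa*, −0.0501 for *Vegfc*, −0.15 for *Nrp2* and −0.0713 for *Flt4*. Rescaled to genes that are not mitochondrially encoded it was 0.0095 for *Vegfb* and 0.0014 for *Angpt1*. Scaled to a common median ratio it was −0.0051 for *Vegfc* and −0.0125 for *Flt4*. These scalings moved the median of all genes from 0.09 to 0.16 and −0.01. With 1 library left out, values ranged for *Vegfa* from −0.19 to 0.0673, for *Vegfc* from −0.0272 to 0.18, for *Nrp2* from −0.0157 to 0.51 and for *Flt4* from −0.0287 to 0.19. The same ranges were −0.15 to −0.02 for *Vegfb*, −0.09 to −0.02 for *Angpt1*, −0.26 to −0.02 for *Flt1* and −0.33 to −0.05 for *Kdr*, with the values nearest 0 without model mouse 3, rFGF4 mouse 2, model mouse 2 and model mouse 2. *Tek* did not pass when rescaled to genes not mitochondrially encoded (−0.30), with the block (−0.35) or without rFGF4 mouse 1 and model mouse 5 (−0.25), and ranged from −0.49 to −0.31 with 1 library left out. *Tie1* passed when scaled to a common median ratio (−0.46) and without rFGF4 mouse 5 (−0.50), as did *Ptprb* without that mouse (−0.41), with ranges over single libraries of −0.50 to −0.29 and −0.41 to −0.18. By median level *Vegfd* ranked 4, *Angpt2* 5, *Angpt1* 7 and *Vegfc* 8. The causes were not tested. Several members rest on few fragments. The estimates per library were 3.98 to 21.2 for *Pgf*, 39.6 to 82.6 for *Vegfc* and 71.0 to 179 for *Vegfd*. They were 87.6 to 406 for *Angpt2* and 96.1 to 127 for *Angpt1*. The count test on recovered reads was not run.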

Other observations

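Other cell types of the kidney, which make or receive these ligands, were described by marker lists with no set test. Over all tested genes 32.9% of fold changes were below 0, the median was 0.09, 4.62% had an unadjusted p under 0.05 and 1.53% passed the study's threshold. Of 9 podocyte genes 8 had a fold change above 0 (median 0.30), and *Synpo*, the actin-binding synaptopodin, passed the study's threshold at 3.93 ± 1.79 against 1.57 ± 0.475 FPKM (log2 fold change 0.87, limma p = 0.0195, adjusted p = 0.918, exact permutation p = 0.0571). Summed FPKM of that list was 143.9, 128.8, 115.6 and 90.7 in the rFGF4 mice and 63.95, 116.6, 74.94 and 133.3 in the model mice, with overlap. Without model mouse 5, 4 of the 9 were higher at an unadjusted p under 0.05, as were 5.19% of all tested genes in that fit. Of 9 proximal tubule genes 8 were below 0 (median −0.43), and of 8 distal tubule and collecting duct genes 8 (median −0.30), with none at an unadjusted p under 0.05. Summed FPKM of the proximal list was 1375 in rFGF4 mouse 1 and 3301 to 8624 in the other 7 libraries, and that of the distal list 282.2 and 412.9 to 620.4. Without rFGF4 mouse 1, 3 of 9 proximal genes (median 0.06) and 4 of 8 distal genes (median −0.06) were below 0, where all tested genes had 47.8% below 0 and a median of 0.01. The smallest p belonged to *Aqp1*, a water channel (271 ± 125 against 374 ± 136 FPKM, p = 0.234, exact permutation p = 0.314), and *Scnn1g*, a sodium channel subunit (13.2 ± 3.0 against 18.2 ± 4.78, p = 0.0898, exact permutation p = 0.114), both unadjusted from limma. The mesangium and pericyte list had 6 of 11 above 0 (*Myh11*, 3.58 ± 1.54 against 5.79 ± 2.37 FPKM, limma p = 0.105, exact permutation p = 0.171) and the thick ascending limb list 4 of 6 below 0 (*Umod*, limma p = 0.102, exact permutation p = 0.0857), with none at an unadjusted p under 0.05. Without model mouse 5, 2 of the 11 mesangium and pericyte genes were higher at that level, against 5.19% of all tested genes. Their median was then 0.27, against 0.01 in the reported fit.

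Of 9 tested immediate early genes 9 were above 0 (median 1.08), and *Dusp1*, a phosphatase of MAP kinases, passed the study's threshold at 24.4 ± 13.8 against 9.65 ± 1.55 FPKM (log2 fold change 1.08, limma p = 0.0221, adjusted p = 0.918, exact permutation p = 0.0286). Summed FPKM of that list was 169.9, 190.4, 160.8 and 37.72 in the rFGF4 mice and 32.18, 64.43, 29.71 and 116.5 in the model mice, so that rFGF4 mouse 5 lay among the lower model mice and model mouse 5 above it. Without rFGF4 mouse 5, 7 of the 9 were higher at an unadjusted p under 0.05, and without model mouse 5 it was 5, against 7.28% and 5.19% of all tested genes in those fits. Of 5 red blood cell genes 5 were below 0 (median −1.97) with none at an unadjusted p under 0.05 (*Hba-a1*, 316 ± 309 against 802 ± 365 FPKM, limma p = 0.0615, exact permutation p = 0.114), whereas 5 of 5 were lower at that level without rFGF4 mouse 5 or without model mouse 5, where 2.16% and 1.32% of all tested genes were. Without rFGF4 mouse 1 the median was −1.13 and none of the 5 was at that level, where 1.32% of all tested genes were lower. *Fabp4*, a fatty acid binding protein of adipocytes, macrophages and endothelium, was lower (8.13 ± 3.57 against 13.6 ± 2.69 FPKM, limma p = 0.0207, adjusted p = 0.918, exact permutation p = 0.0857) and was 1 of 2 adipose genes tested. Of the adrenal list only *Star* was tested (1.12 ± 0.155 against 1.08 ± 0.240 FPKM, limma p = 0.801, exact permutation p = 0.771). *Cyp11b1*, *Cyp11b2* and *Th* were listed at 0 in every library.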
